A study of Olea europaea with 12 samples.

Results

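The lipoxygenase pathway of olive fruit was followed through 5 genes, which were picked by their gene symbols out of the 51008 genes of the table. They are 3 genes for 13-lipoxygenases (LOC111392344, LOC111393284 and LOC111366164), the gene for fatty acid hydroperoxide lyase (LOC111368519) and a gene for allene oxide synthase 1 (LOC111408828). The picking was done with their levels in these same 12 libraries known, so the levels of these 5 genes are described here without a test. The RNA is that of mesocarp, the flesh that stores the oil, from the Greek oil cultivar Koroneiki of Olea europaea in a field of Western Greece. Fruit age is counted in weeks after flowering (WAF), and fruits were sampled when 17, 21, 26 and 30 WAF old, with fruits of an age alike in colour, size and shape. Each age has 3 libraries, lettered A to C. All ages shared the cultivar, the field, the growing season and standard local care, and the labels name no treatment. The library names carry a different month for each age, from Sep to Dec. Fruit age therefore cannot be told apart from calendar date or from anything else that differed between those months. The labels do not say that libraries A, B and C came from separate trees, so the spread behind every p-value is that between these 3 samples and can be technical.

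Lipoxygenases add molecular oxygen to polyunsaturated fatty acids, mainly linoleic and linolenic acid, and are grouped by the carbon that is oxygenated into 9- and 13-lipoxygenases. In plastids, 13-hydroperoxides have several known fates. Hydroperoxide lyase cleaves them to the short-chain aldehydes which, with the alcohols and esters made from them, carry the green and fruity aroma of virgin olive oil, and allene oxide synthase turns them toward jasmonates, the hormones of wounding and development. The allene oxide synthase gene thus belongs to the hormone branch and not to the aroma branch.

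Levels are FPKM, the fragment number scaled for transcript length and for the library's total, as deposited by the authors. All 5 genes passed the filter of at least 1 FPKM in at least 3 libraries, as did 26131 genes in all. Summed FPKM per library ranged from 790578 to 845585 and the number of reads behind them is unknown, so no counting error is given. Across genes, which are not independent replicates, libraries of the same age correlated at 0.992 to 0.996 on log2(FPKM + 1), and libraries of different ages at 0.888 to 0.972. The fewest genes with a level above 0 were in library C of 30 WAF, at 36754. Marker genes of neighbouring tissues were present at all ages. The summed level of 11 seed storage protein genes was 170.0 to 174 FPKM at 17 WAF, 115 to 117 FPKM at 21 WAF, 105 to 108 FPKM at 26 WAF and 72.1 to 78.4 FPKM at 30 WAF, with 2 of the 11 at 0 in every library. Most of this sum was 1 vicilin-like gene, LOC111393661, with a mean of 133 FPKM at 17 WAF and 64.7 FPKM at 30 WAF.

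The 2 genes described as linoleate 13S-lipoxygenase 2-1 were high at 21 and 26 WAF and lower at both ends of the sampled period. LOC111392344 had 551, 557 and 567 FPKM in libraries A, B and C at 17 WAF. It had 1569, 1538 and 1500.4 FPKM at 21 WAF, and 1426, 1446 and 1471 FPKM at 26 WAF. At 30 WAF it had 749.6, 747 and 724 FPKM. As deposited, the libraries of no pair of ages overlapped, and the order of the ages from high to low was 21, 26, 30 and 17 WAF. With median-of-ratios scaling the libraries of 26 WAF (1491 to 1545) and of 21 WAF (1501 to 1575) overlapped, so the separation of these ages depends on scaling. The difference in mean log2(FPKM + 1) for 26 minus 21 WAF was -0.085 as deposited, -0.061 with TPM scaling and -0.024 with median-of-ratios scaling. The ratio of the means was 2.75 for 21 over 17 WAF, 0.943 for 26 over 21 WAF, 0.511 for 30 over 26 WAF and 1.33 for 30 over 17 WAF. By its mean over all libraries it ranked 51st among the 51008 genes, and it alone held 0.182 to 0.187% of the summed FPKM of a library at 21 WAF and 0.0692 to 0.0709% at 17 WAF.

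LOC111393284, a second gene of that description, was lower at every age. It had 96.1, 88.7 and 90.0 FPKM at 17 WAF, and 241, 272 and 272 FPKM at 21 WAF. It had 245, 275 and 234 FPKM at 26 WAF, and 85.8, 83.9 and 83.7 FPKM at 30 WAF. The libraries of 21 and 26 WAF overlapped, while those of 30 WAF lay just below those of 17 WAF. The means were 91.6 ± 3.94 FPKM at 17 WAF, 261.5 ± 18.0 FPKM at 21 WAF, 251 ± 21.6 FPKM at 26 WAF and 84.5 ± 1.18 FPKM at 30 WAF (SD, n = 3 each). The difference in mean log2(FPKM + 1) was 1.5 for 21 minus 17 WAF and -1.56 for 30 minus 26 WAF, against 1.46 and -0.97 for LOC111392344.

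In the RefSeq gene table of the assembly O_europaea_v1, LOC111393284 and LOC111392344 follow each other with no annotated gene between them, and the deposited table gives both the same closest protein matches, which are lipoxygenase 2 of Fraxinus mandshurica and of olive. No sequences were used here, so how alike the copies are was not measured, and reads that match both may have been split between them. The level of LOC111392344 was 5.74 to 6.30 times that of LOC111393284 in the libraries of 17 WAF. The ratio lay between 5.52 and 6.52 at 21 WAF and between 5.25 and 6.30 at 26 WAF. At 30 WAF it lay between 8.65 and 8.90, above every earlier library. The ratio was thus nearly level until 26 WAF, and the less abundant copy was the lower of the pair by more at 30 WAF.

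**Figure D1:**
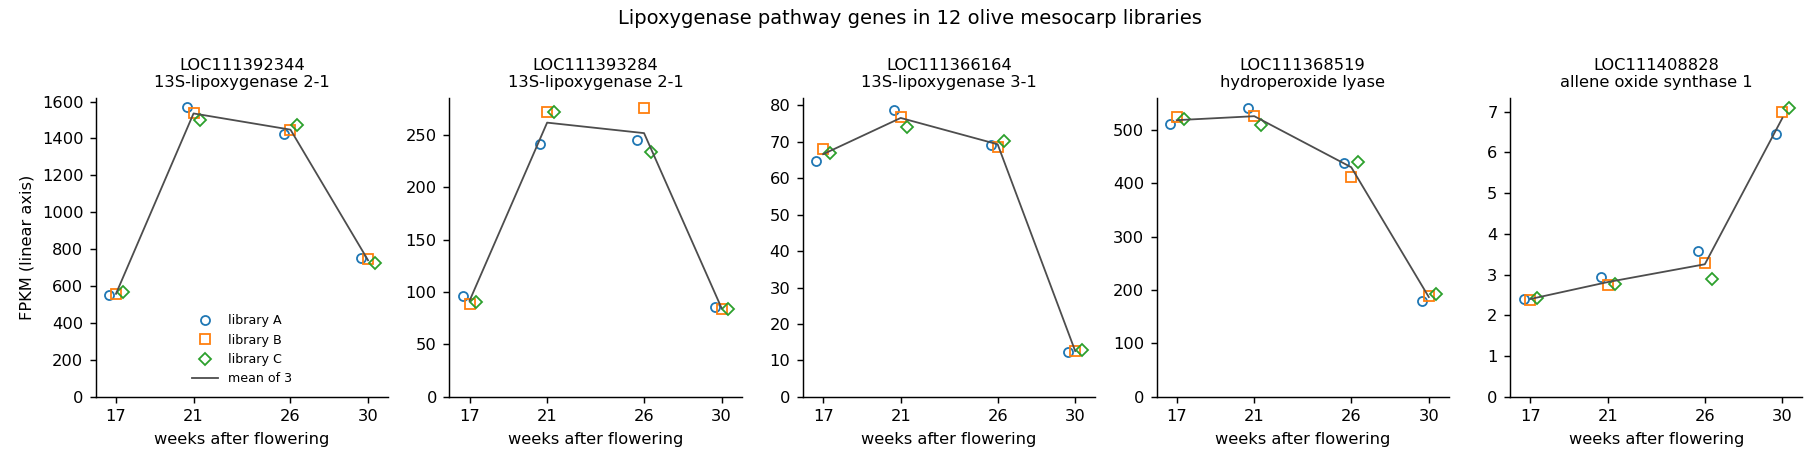
FPKM (linear axes from 0) of the 5 genes against weeks after flowering, with a symbol for each of libraries A, B and C and a line through the mean of the 3. The lipoxygenase 2-1 genes are highest at 21 and 26 WAF, lipoxygenase 3-1 and hydroperoxide lyase are lowest at 30 WAF, and allene oxide synthase 1 stays below 8 FPKM and is highest at 30 WAF.

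LOC111366164, described as linoleate 13S-lipoxygenase 3-1, lay between 64.7 and 78.7 FPKM up to 26 WAF, highest at 21 WAF, and was far lower at 30 WAF. It had 64.7, 68.1 and 67.0 FPKM at 17 WAF, and 78.7, 76.8 and 74.1 FPKM at 21 WAF. It had 69.0, 68.7 and 70.3 FPKM at 26 WAF, and 12.4, 12.4 and 12.8 FPKM at 30 WAF. All libraries of 30 WAF lay far below all others, whereas the highest library of 17 WAF and the lowest of 26 WAF were 68.1 and 68.7 FPKM. The ratio of the means was 0.181 for 30 over 26 WAF and 0.188 for 30 over 17 WAF. The deposited table assigns this gene, unlike both lipoxygenase 2-1 genes, the term jasmonic acid biosynthetic process.

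LOC111368519 was the single gene of the table described as a hydroperoxide lyase, the enzyme that makes the aroma aldehydes. It had 510.4, 523 and 520.0 FPKM at 17 WAF, and 541, 526 and 509 FPKM at 21 WAF. It had 438, 412 and 439 FPKM at 26 WAF, and 180.1, 188 and 192 FPKM at 30 WAF. The libraries of 17 and 21 WAF overlapped as deposited, with those of 21 WAF all higher under median-of-ratios scaling and all lower under TPM scaling. Those of 26 WAF lay below both, and those of 30 WAF lay lowest. The mean at 30 WAF was 187 ± 5.97 FPKM, against 518 ± 6.73 FPKM at 17 WAF (SD, n = 3 each), a ratio of 0.361. The ratio was 0.434 for 30 over 26 WAF and 0.818 for 26 over 21 WAF.

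The level of LOC111368519 thus did not follow that of the most abundant 13-lipoxygenase. LOC111392344 was 1.06 to 1.09 times as high as the hydroperoxide lyase gene in the libraries of 17 WAF. The ratio lay between 2.90 and 2.95 at 21 WAF, between 3.25 and 3.51 at 26 WAF and between 3.78 and 4.16 at 30 WAF. These ratios did not overlap between any of the ages. Over the 12 libraries, log2(FPKM + 1) of the hydroperoxide lyase gene had a Pearson correlation of 0.983 with LOC111366164, 0.540 with LOC111393284 and 0.297 with LOC111392344. All of these points come from the same 12 libraries at 4 ages, so the coefficients describe likeness of pattern.

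LOC111408828, for an allene oxide synthase, was low throughout and was higher at 30 WAF. It had 2.40, 2.37 and 2.43 FPKM at 17 WAF, and 2.93, 2.74 and 2.78 FPKM at 21 WAF. It had 3.58, 3.29 and 2.89 FPKM at 26 WAF, and 6.44, 6.99 and 7.10 FPKM at 30 WAF. The libraries of 21 and 26 WAF overlapped as deposited, though not with TPM or median-of-ratios scaling, where those of 26 WAF were all higher, and those of 30 WAF lay above all others. The ratio of the means was 2.10 for 30 over 26 WAF and 2.85 for 30 over 17 WAF. Because the level is low, the difference for 30 minus 17 WAF was 1.21 on the log2(FPKM + 1) scale and 1.47 with a pseudocount of 0.1. Its correlation over the 12 libraries was -0.979 with the hydroperoxide lyase gene and -0.955 with LOC111366164.

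The level of LOC111408828 was small beside that of the hydroperoxide lyase gene and of another allene oxide synthase 1 gene, LOC111401326. The 3 tested allene oxide synthase genes summed to 24.8 to 25.7 FPKM at 17 WAF, 30.7 to 31.0 FPKM at 21 WAF, 29.5 to 31.1 FPKM at 26 WAF and 25.2 to 26.2 FPKM at 30 WAF. The share of LOC111408828 in that sum was 9.22 to 9.66% at 17 WAF and 25.5 to 27.3% at 30 WAF. The ratio of the hydroperoxide lyase level to the sum averaged 20.5 ± 0.0968 at 17 WAF and 17.0 ± 0.564 at 21 WAF, then 14.1 ± 0.0747 at 26 WAF, and 7.24 ± 0.125 at 30 WAF (SD, n = 3 each). Hydroperoxide lyase transcripts therefore outnumbered, per length, those of the tested allene oxide synthases in all 12 libraries, by a ratio that was lower at each later age.

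**Figure D2:**
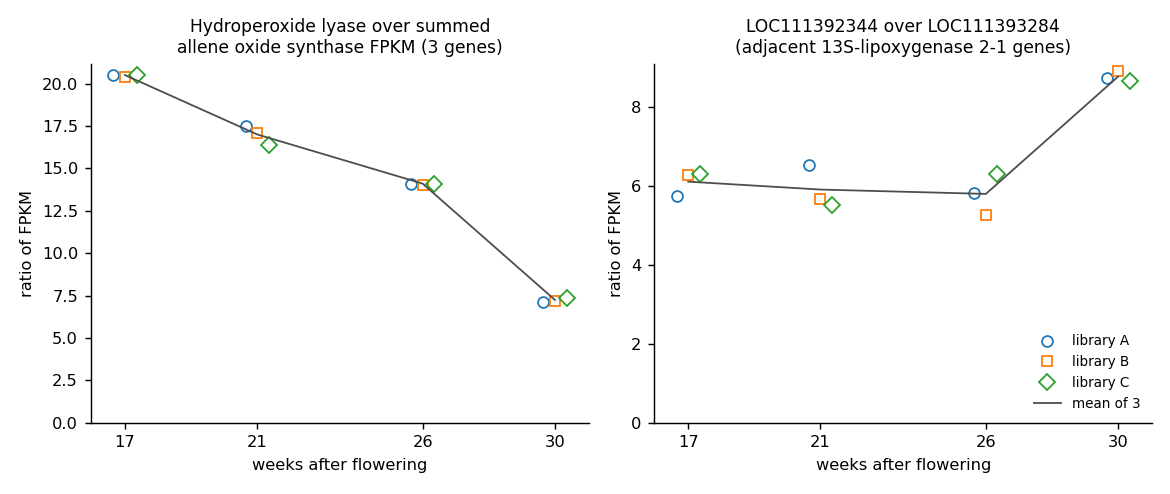
Ratios of FPKM in each library against weeks after flowering, on linear axes from 0, with a line through the mean of 3 libraries. Left, the hydroperoxide lyase gene over the sum of 3 allene oxide synthase genes, which is 20.4 to 20.5 at 17 WAF and 7.14 to 7.38 at 30 WAF; right, LOC111392344 over LOC111393284, which is 8.65 to 8.90 at 30 WAF and at most 6.52 before.

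Non-overlap of 3 with 3 libraries was common in this series. For 21 over 17 WAF, 4 of the 5 genes had libraries that did not overlap, all 4 higher, where 65.0% of all tested genes did not overlap (25.3% higher and 39.7% lower). For 26 against 21 WAF, 3 of the 5 did not overlap, all 3 lower, beside 62.9% of all tested genes (25.8% higher and 37.0% lower). For 30 against 26 WAF all 5 did not overlap, with 1 higher and 4 lower, beside 68.7% of all tested genes (43.4% higher and 25.3% lower). For 30 against 17 WAF all 5 did not overlap, with 2 higher and 3 lower, beside 75.0% of all tested genes (35.5% higher and 39.5% lower). The 5 genes were picked with these comparisons known, so the counts are given as a description.

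Markers of other tissues moved between the same ages. The summed level of 68 cuticle and epidermis genes was 1783 to 1820 FPKM at 30 WAF, against 814 to 840 FPKM at 26 WAF, where the 13-lipoxygenases and hydroperoxide lyase were lower at 30 WAF. The sum was 957 to 963 FPKM at 17 WAF and 907 to 928 FPKM at 21 WAF, and 8 of the 68 genes were at 0 in every library. For 30 over 26 WAF, 23 of the 32 tested cuticle genes were higher and 4 lower (42.0% and 24.3% of all tested genes). Their median log2 change was 0.85 against 0.10 over all tested genes. For 30 over 17 WAF, 13 were higher and 15 lower (34.9% and 38.9% of all), with a median of -0.015 against -0.033. LOC111385303 and LOC111388105 held much of the 30 WAF sum, with means of 567 and 415 FPKM against 167 and 178 at 17 WAF. The summed level of 62 lignified-tissue genes was 279 to 286 FPKM at 17 WAF, 310.0 to 323 FPKM at 21 WAF, 598 to 621 FPKM at 26 WAF and 553 to 563 FPKM at 30 WAF, with 6 of the 62 at 0 throughout. A large part of this sum was 1 gene, the caffeic acid 3-O-methyltransferase gene LOC111397542, with a mean of 175 FPKM at 21 WAF and 460 FPKM at 26 WAF. Of the 14 tested genes of this list, 8 were higher and 4 lower for 26 over 21 WAF. Of all tested genes, 23.2% were called higher and 32.9% lower. The part of these tissues in the levels of the 5 genes was not tested, and in whole mesocarp fewer cells of a type and less RNA per cell cannot be told apart.

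The other lipoxygenase genes were tested one by one. They are what remained of a list of descriptions after 3 of its genes had been picked with their levels known, so their counts say nothing of the family as a whole. Gene descriptions gave 11 lipoxygenase genes, of which 9 passed the filter, and 6 of these are not among the 5 genes above. The fit was limma on log2(FPKM + 1) over all 26131 tested genes, with p-values adjusted by the Benjamini-Hochberg method over all of them and called under 0.05. Over the 4 ages all 6 changed in limma's F test, where 89.9% of all tested genes did. For 30 over 17 WAF, 2 of the 6 rose and 4 fell, with a median log2 change of -1.12 against -0.03 over all tested genes, and 73.9% of all tested genes were called (34.9% higher and 38.9% lower). For 30 over 26 WAF, 2 rose and 4 fell, where 66.3% of all tested genes were called (42.0% higher and 24.3% lower). For 26 over 21 WAF, 1 rose, 4 fell and 1 was not called, where 56.1% of all tested genes were called (23.2% higher and 32.9% lower). For 21 over 17 WAF 3 rose and 3 fell, where 58.1% were called (22.2% higher and 35.9% lower).

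LOC111410046, a probable linoleate 9S-lipoxygenase 5, rose at every step and became the most abundant 9-lipoxygenase gene. Enzymes of this class oxygenate the other end of the fatty acid's double-bond system, and whether this gene's product feeds aroma aldehydes was not tested. It had 21.8, 20.1 and 20.3 FPKM at 17 WAF, and 38.2, 39.2 and 37.5 FPKM at 21 WAF. It had 142, 143 and 143 FPKM at 26 WAF, and 260.0, 263 and 269.9 FPKM at 30 WAF. The libraries of no pair of ages overlapped. Its log2 change was 3.61 for 30 over 17 WAF (SE 0.033, limma adjusted p = 5.8e-17) and 1.87 for 26 over 21 WAF (SE 0.033, adjusted p = 2.5e-13).

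Other 9-lipoxygenase genes went the other way or rose less. LOC111386480, of the same description, fell to 21.6 ± 1.08 FPKM at 30 WAF, against 90.9 ± 0.743 FPKM at 17 WAF (SD, n = 3 each; log2 change -2.03, SE 0.035, limma adjusted p = 1.7e-14). Most of that change lay between the first ages, with 36.4 ± 0.257 FPKM at 21 WAF. The remaining 3 tested genes are given as well, chosen after their values were seen. The 9-lipoxygenase gene LOC111368968 fell to 10.7 ± 0.746 FPKM at 30 WAF, against 35.2 ± 2.06 FPKM at 17 WAF (limma adjusted p = 3.2e-11). LOC111388392 of the same description rose to 24.8 ± 0.727 FPKM, against 8.52 ± 0.286 FPKM (limma adjusted p = 1.2e-12). The lipoxygenase 6 gene LOC111369299 fell to 8.02 ± 0.35 FPKM, against 17.1 ± 0.229 FPKM (limma adjusted p = 4.7e-10). In Arabidopsis, lipoxygenase 6 is one of the 13-lipoxygenases.

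LOC111366779, a second gene described as linoleate 13S-lipoxygenase 3-1, was not among the picked genes and was also lowest at 30 WAF. It had 47.6, 47.3 and 47.1 FPKM at 17 WAF, and 52.0, 52.9 and 51.4 FPKM at 21 WAF. It had 46.1, 48.2 and 47.9 FPKM at 26 WAF, and 19.6, 20.2 and 18.6 FPKM at 30 WAF. It fell at 30 WAF relative to 26 WAF, with a log2 change of -1.24 (SE 0.033, limma adjusted p = 3.1e-12). LOC111366164 was 1.36 to 1.51 times as high as this gene in the 9 libraries up to 26 WAF and 0.617 to 0.689 times as high at 30 WAF. As the genes share a description and may share reads, their split is uncertain.

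**Figure D3:**
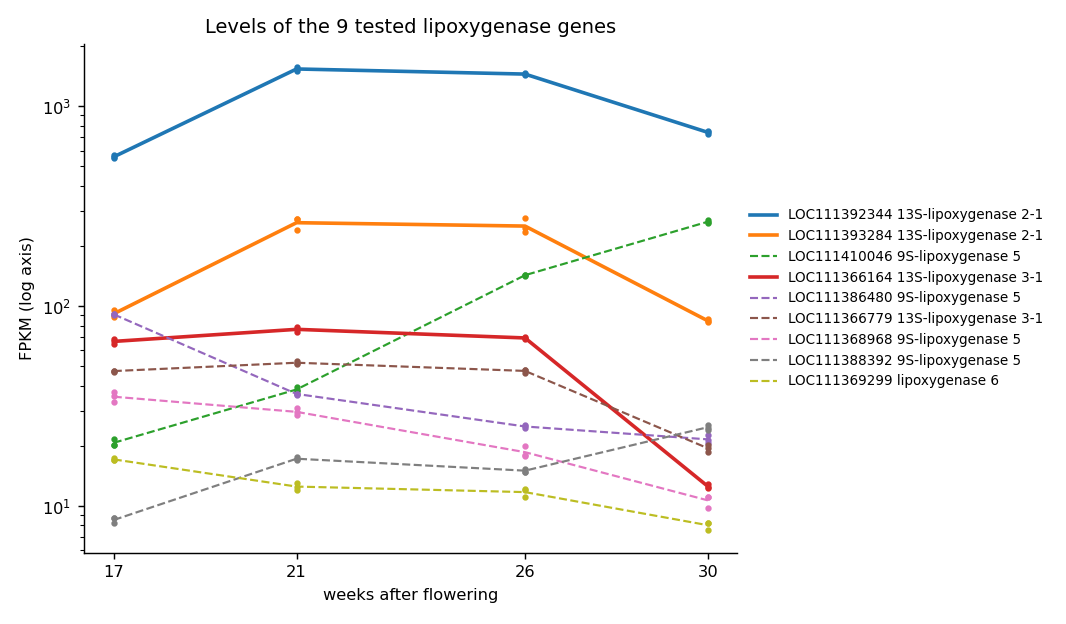
FPKM on a log axis of the 9 tested lipoxygenase genes against weeks after flowering, with a point for each library and a line through the mean of 3. Solid lines are LOC111392344, LOC111393284 and LOC111366164 and dashed lines the 6 others; LOC111410046 has 20.1 to 21.8 FPKM at 17 WAF and 260.0 to 269.9 FPKM at 30 WAF, while LOC111366164 and LOC111366779 are lowest at 30 WAF.

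In the pool of lipoxygenase transcripts, the 13-lipoxygenases held their highest share at 21 WAF and the 9-lipoxygenases theirs at 30 WAF. The pool, which is the 9 tested genes, summed to 930.0 to 945 FPKM at 17 WAF, 2032 to 2074 FPKM at 21 WAF, 1998 to 2054 FPKM at 26 WAF and 1172 to 1194 FPKM at 30 WAF. The 4 genes described as 13S-lipoxygenases held a mean of 81.6% of the sum at 17 WAF and 93.5% at 21 WAF, then 89.5% at 26 WAF and finally 72.2% at 30 WAF. LOC111392344 alone held 59.6 ± 0.352% at 17 WAF and 74.5 ± 0.978% at 21 WAF, then 71.4 ± 0.919% at 26 WAF and finally 62.4 ± 0.609% at 30 WAF (SD, n = 3 each). LOC111366164 held 6.96 to 7.30% at 17 WAF and 1.04 to 1.10% at 30 WAF. The 4 genes described as 9S-lipoxygenases held a mean of 16.6% at 17 WAF and 5.90% at 21 WAF, then 9.93% at 26 WAF and finally 27.1% at 30 WAF, where LOC111410046 alone held 22.3%. LOC111392344 was thus the largest lipoxygenase transcript in all 12 libraries.

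**Figure D4:**
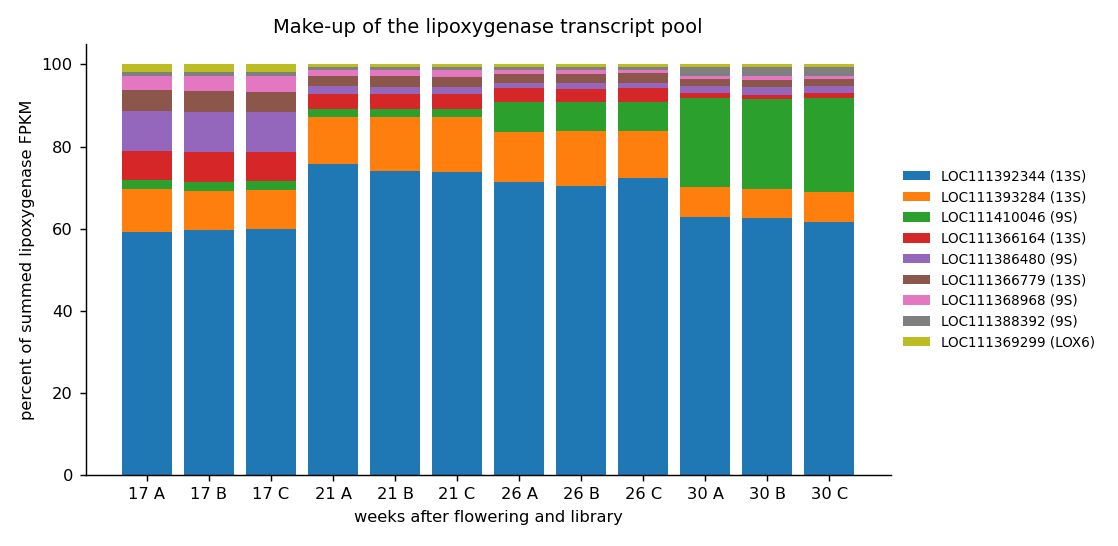
Percent of the summed FPKM of the 9 tested lipoxygenase genes held by each gene, in each of the 12 libraries ordered by weeks after flowering. LOC111392344 fills 59.3 to 75.7% of each bar, and the share of the 9-lipoxygenase LOC111410046 is 21.8 to 23.0% at 30 WAF, against 2.14 to 2.34% at 17 WAF.

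Further genes of the pathway came from lists of gene descriptions, with 109 genes beside the 5, of which 60 were tested. For 21 over 17 WAF, 21 of the 60 rose and 28 fell, where 58.1% of all tested genes were called (22.2% higher and 35.9% lower). For 26 over 21 WAF, 15 rose and 32 fell, where 56.1% of all were called (23.2% higher and 32.9% lower). For 30 over 26 WAF, 20 rose and 29 fell, where 66.3% of all were called (42.0% higher and 24.3% lower). For 30 over 17 WAF, 24 rose and 26 fell, where 73.9% of all were called (34.9% higher and 38.9% lower), with a median log2 change of -0.01 against -0.03 over all tested genes. Shares of higher and lower calls over all genes depend on scaling, since 38.2% of calls were higher for 21 over 17 WAF as deposited and 49.6% with median-of-ratios scaling. Those shares were 41.3% and 51.2% for 26 over 21 WAF, and 63.4% and 51.3% for 30 over 26 WAF.

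**Figure D5:**
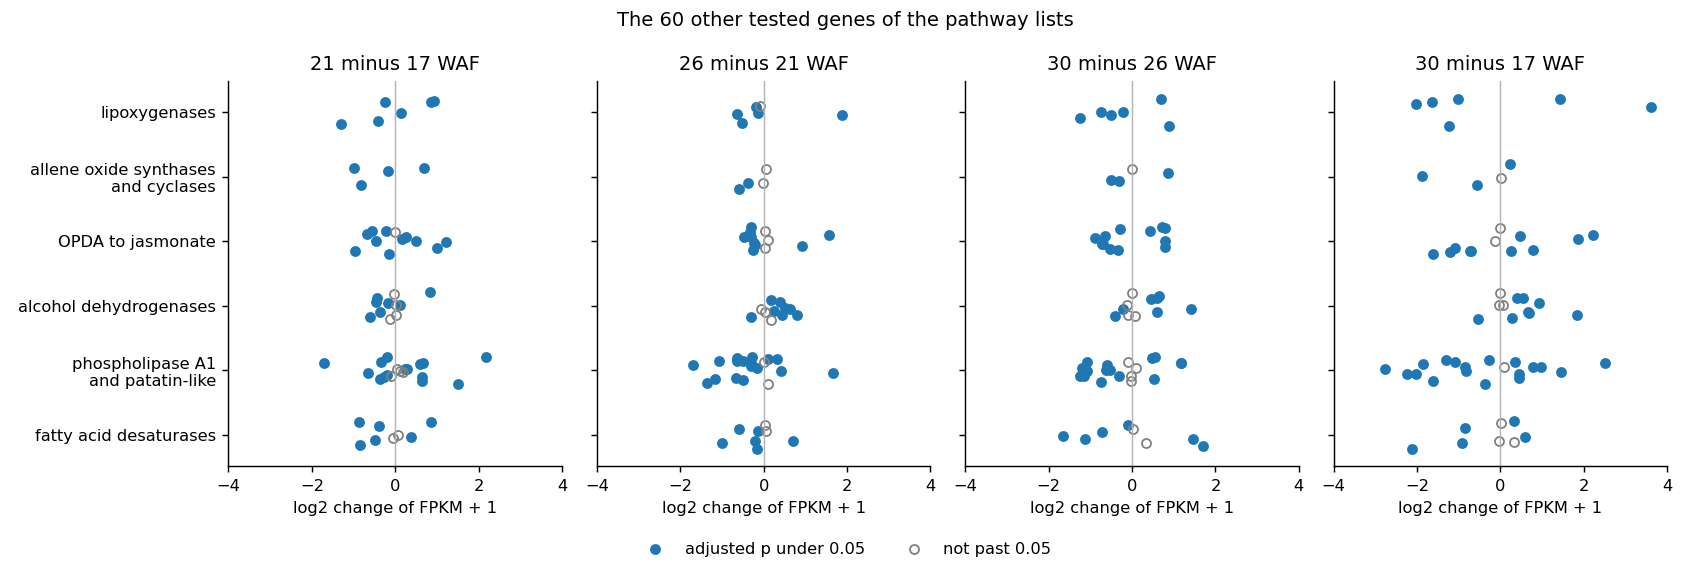
Log2 change of FPKM + 1 (later minus earlier age) of the 60 other tested genes, 1 point per gene, in 6 lists and 4 comparisons, with filled points for a limma adjusted p under 0.05; points are spread vertically only for legibility. Among lipoxygenases LOC111410046 stands at 3.61 for 30 minus 17 WAF, and in most lists points lie on both sides of 0.

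In the hormone branch, the tested genes for allene oxide synthases and cyclases had levels above 0 in all libraries and moved in different directions. LOC111401326, the most abundant allene oxide synthase gene, rose to 24.4 ± 0.244 FPKM at 21 WAF, against 14.6 ± 0.672 FPKM at 17 WAF (log2 change 0.70, SE 0.043, limma adjusted p = 2e-08). It fell to 17.4 ± 0.450 FPKM at 30 WAF, against 25.2 ± 1.15 FPKM at 26 WAF (log2 change -0.51, SE 0.043, limma adjusted p = 3.4e-07), where LOC111408828 was higher. The allene oxide synthase 3 gene LOC111388324 fell to 1.53 ± 0.295 FPKM at 30 WAF, against 8.29 ± 0.221 FPKM at 17 WAF (limma adjusted p = 5.7e-10). The abundant allene oxide cyclase gene LOC111382804, for the next step, fell to 77.7 ± 2.97 FPKM at 30 WAF, against 115 ± 5.06 FPKM at 17 WAF (log2 change -0.56, SE 0.042, limma adjusted p = 6.5e-08). Of the 4 tested synthase and cyclase genes of the list, 1 rose, 2 fell and 1 was not called for 30 over 17 WAF, where 73.9% of all tested genes were called.

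Of 12 tested genes described as 12-oxophytodienoate (OPDA) reductases, jasmonic acid-amido synthetases or jasmonate O-methyltransferases, 5 rose and 5 fell for 30 over 17 WAF. Their median was -0.06 against -0.03 over all tested genes, of which 73.9% were called. The list counts reductases of types 1, 3 and 11 together, and which of them act in jasmonate synthesis was not tested. The 12-oxophytodienoate reductase 3 gene LOC111399759, whose relative makes the jasmonate precursor in Arabidopsis, fell to 88.7 ± 1.10 FPKM at 30 WAF, against 144 ± 6.10 FPKM at 26 WAF (log2 change -0.70, SE 0.037, limma adjusted p = 3.1e-09). LOC111403882, also described as a 12-oxophytodienoate reductase 3, fell to 28.0 ± 0.439 FPKM at 30 WAF, against 53.1 ± 2.64 FPKM at 26 WAF (limma adjusted p = 8.9e-09). The reductase genes LOC111375625 (type 11) and LOC111389541 (type 1) rose instead, whereas the type 1 genes LOC111365486 and LOC111365494, named after their values were seen, fell (limma adjusted p = 5e-10 and 1.3e-08 for 30 over 17 WAF). LOC111375625 had 52.5 ± 2.82 FPKM at 30 WAF and 13.7 ± 0.618 FPKM at 17 WAF (log2 change 1.86, SE 0.050, limma adjusted p = 1.3e-12). LOC111389541 had 31.7 ± 1.88 FPKM at 30 WAF and 6.07 ± 0.447 FPKM at 17 WAF (log2 change 2.21, SE 0.071, limma adjusted p = 8.7e-12). The jasmonate O-methyltransferase gene LOC111394434, for the volatile methyl ester, rose to 148 ± 6.46 FPKM at 21 WAF, against 63.5 ± 1.45 FPKM at 17 WAF (log2 change 1.21, SE 0.038, limma adjusted p = 3.5e-11). It fell to 87.65 ± 3.23 FPKM at 30 WAF, against 127.5 ± 2.98 FPKM at 26 WAF (limma adjusted p = 5.5e-08).

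On the aroma side, alcohol dehydrogenases reduce the aldehydes of hydroperoxide lyase to alcohols. For 30 over 17 WAF, 7 of 11 tested genes described as alcohol dehydrogenases rose, 1 fell and 3 were not called, where 34.9% of all tested genes were called higher and 38.9% lower. Their median was 0.40 against -0.03 over all tested genes. For 26 over 21 WAF 7 rose and 1 fell, where 23.2% of all were called higher and 32.9% lower, with a median of 0.26 against -0.06. For 21 over 17 WAF 2 rose and 5 fell (22.2% and 35.9% of all), with a median of -0.12 against -0.07. For 30 over 26 WAF 5 rose and 2 fell (42.0% and 24.3% of all), with a median of 0.08 against 0.10. Among the genes that rose for 30 over 17 WAF, LOC111374857, LOC111374858, LOC111373593 and LOC111371759 had means under 5 FPKM at both ages. They were named after their values were seen. LOC111372580, described as alcohol dehydrogenase 1, was the most abundant and did not pass for 30 over 17 WAF, with 167 ± 2.95 FPKM at 30 WAF and 168 ± 6.67 FPKM at 17 WAF (limma adjusted p = 0.71, and 0.0096 with TPM scaling, where its log2 change was -0.09). It was lowest at 21 WAF, with 110.2 ± 2.94 FPKM (log2 change -0.61 over 17 WAF, SE 0.032, limma adjusted p = 4.7e-09). The class-3 genes LOC111393329 and LOC111405827 follow in abundance. Class-3 alcohol dehydrogenases act mainly on glutathione adducts, not on free aldehydes of this kind, and 4 of the 7 genes that rose for 30 over 17 WAF carry that description. LOC111393329 rose to 144 ± 1.69 FPKM at 30 WAF, against 89.2 ± 1.58 FPKM at 17 WAF (log2 change 0.68, SE 0.028, limma adjusted p = 1.3e-10). LOC111405827 rose to 132 ± 3.87 FPKM, against 108 ± 3.47 FPKM (log2 change 0.28, SE 0.035, limma adjusted p = 9.8e-06).

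Upstream, lipases that free fatty acids from membrane lipids supply the lipoxygenases. For 30 over 26 WAF, 5 of 19 tested phospholipase A1 and patatin-like genes rose and 10 fell, where 42.0% of all tested genes were called higher and 24.3% lower. Their median was -0.32 against 0.10 over all tested genes. For 26 over 21 WAF 4 rose and 13 fell (23.2% and 32.9% of all), with a median of -0.31 against -0.06. For 21 over 17 WAF 8 rose and 7 fell (22.2% and 35.9% of all), with a median of 0.11 against -0.07. For 30 over 17 WAF 7 rose and 11 fell (34.9% and 38.9% of all), with a median of -0.36 against -0.03. The plastid-targeted phospholipase A1-Igamma3 gene LOC111411888 rose to 31.2 ± 0.858 FPKM at 21 WAF, against 10.4 ± 0.387 FPKM at 17 WAF (log2 change 1.5, SE 0.039, limma adjusted p = 8e-12). It fell to 11.1 ± 0.175 FPKM at 30 WAF, against 25.7 ± 0.821 FPKM at 26 WAF (log2 change -1.14, SE 0.039, limma adjusted p = 4e-11). Its level was thus high at 21 and 26 WAF, as were the lipoxygenase 2-1 genes. A second gene of that description, LOC111392511, fell to 3.17 ± 0.137 FPKM at 30 WAF, against 18.7 ± 0.309 FPKM at 17 WAF (log2 change -2.24, SE 0.042, limma adjusted p = 4e-14). Between these ages it was higher at 21 WAF, with 29.9 ± 1.18 FPKM (limma adjusted p = 3.4e-08 over 17 WAF). It then fell to 8.61 ± 0.130 FPKM at 26 WAF (log2 change -1.69 over 21 WAF, SE 0.042, limma adjusted p = 6.5e-12). The phospholipase A1-Igamma1 gene LOC111370499 fell to 1.82 ± 0.305 FPKM at 26 WAF, against 6.22 ± 0.138 FPKM at 21 WAF (limma adjusted p = 3e-08).

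The phospholipase A1-IIdelta gene LOC111365393 had the largest rise of the lists for 21 over 17 WAF, with 10.6 ± 0.370 FPKM at 21 WAF and 1.58 ± 0.0945 FPKM at 17 WAF (log2 change 2.17, SE 0.060, limma adjusted p = 1.3e-11). It fell to 4.14 ± 0.323 FPKM at 26 WAF (log2 change -1.17 over 21 WAF, SE 0.060, limma adjusted p = 5.5e-09). Among patatin-like genes, whose products are lipid acyl hydrolases, LOC111411336 fell to 30.1 ± 0.805 FPKM at 30 WAF, against 94.7 ± 7.10 FPKM at 17 WAF (limma adjusted p = 4.7e-12). LOC111367869, another patatin-like protein 3 gene, fell to 8.89 ± 0.930 FPKM at 30 WAF, against 22.5 ± 0.689 FPKM at 26 WAF (limma adjusted p = 1.2e-09). LOC111405455, a patatin-like protein 6 gene, rose to 12.4 ± 0.384 FPKM at 30 WAF, against 1.38 ± 0.265 FPKM at 17 WAF (limma adjusted p = 8.1e-12). LOC111387865, also a patatin-like protein 6 gene, rose to 14.9 ± 0.943 FPKM at 30 WAF, against 6.12 ± 0.268 FPKM at 26 WAF (limma adjusted p = 1.2e-07). LOC111375141, a probable inactive patatin-like protein, fell to 0.143 ± 0.0404 FPKM at 30 WAF, against 6.85 ± 0.488 FPKM at 17 WAF (limma adjusted p = 2.6e-11). The abundant genes LOC111376379 (patatin-like phospholipase domain-containing protein 4) and LOC111389966 (phospholipase A1-IIdelta) had smaller changes, of 0.45 and -0.27 on the log2 scale for 30 over 17 WAF (limma adjusted p = 1.8e-08 and 1.3e-05).

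Desaturases make the linoleic and linolenic acid on which lipoxygenases act. For 30 over 26 WAF, 2 of 8 tested desaturase genes rose, 4 fell and 2 were not called, where 42.0% of all tested genes were called higher and 24.3% lower, with a median of -0.04 against 0.10 over all tested genes. For 30 over 17 WAF, 2 rose, 3 fell and 3 were not called, where 34.9% of all were called higher and 38.9% lower. The FAD2 gene LOC111399693, of the enzyme that makes linoleic acid, fell to 143 ± 4.38 FPKM at 30 WAF, against 312 ± 3.10 FPKM at 26 WAF (log2 change -1.12, SE 0.032, limma adjusted p = 6.9e-12). It was highest at 26 WAF and had 147 ± 5.82 FPKM at 17 WAF. For 30 over 17 WAF it was not called (limma adjusted p = 0.33, and 0.0036 with TPM scaling, where its log2 change was -0.115). The 2 tested genes for plastid omega-3 desaturases, which make linolenic acid, also fell for 30 over 26 WAF. LOC111403039 had 45.9 ± 2.41 FPKM at 30 WAF and 76.0 ± 2.62 FPKM at 26 WAF (log2 change -0.72, SE 0.042, limma adjusted p = 9.4e-09). LOC111403247 had 7.54 ± 0.569 FPKM at 30 WAF and 26.1 ± 1.18 FPKM at 26 WAF (log2 change -1.67, SE 0.051, limma adjusted p = 1.1e-11). Another FAD2 gene, LOC111390764, rose to 27.3 ± 1.53 FPKM at 30 WAF, against 7.73 ± 0.339 FPKM at 26 WAF (log2 change 1.70, SE 0.053, limma adjusted p = 1.4e-11). It was lowest at 26 WAF and had 21.6 ± 0.906 FPKM at 17 WAF. The plastid omega-6 desaturase gene LOC111376237 fell slightly to 36.4 ± 0.751 FPKM at 30 WAF, against 39.3 ± 1.06 FPKM at 26 WAF (limma adjusted p = 0.0093).

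The genes most like each of the 5 were found among 18194 other tested and described genes by Pearson correlation of log2(FPKM + 1) over the 12 libraries. Most like LOC111392344 were genes for protochlorophyllide reductase (LOC111395683, 0.998), for deacetoxyvindoline 4-hydroxylase (LOC111391638, 0.997) and for ferredoxin-B (LOC111383401, 0.997). The first of them had 19.99 ± 0.538 FPKM at 17 WAF, 88.2 ± 1.73 FPKM at 21 WAF, 80.4 ± 1.52 FPKM at 26 WAF and 30.2 ± 1.10 FPKM at 30 WAF. Most like LOC111393284 were genes for a carotenoid cleavage dioxygenase (LOC111410493, 0.992), a kinase-interacting family protein (LOC111371637, 0.991) and betaine aldehyde dehydrogenase (LOC111374145, 0.990).

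LOC111366164 was most like genes for the transcription factor bHLH145 (LOC111389135), EXO70B1 of the exocyst (LOC111378478) and tetraspanin-8 (LOC111403730), at 0.998 each. The hydroperoxide lyase gene was most like genes for the transcription factor WER (LOC111389739), a phosphate transporter (LOC111373530) and a zinc finger protein (LOC111403041), also at 0.998 each. The WER gene had 25.7 ± 0.657 FPKM at 17 WAF, 27.5 ± 0.569 FPKM at 21 WAF, 17.5 ± 0.226 FPKM at 26 WAF and 2.12 ± 0.395 FPKM at 30 WAF. LOC111408828 was most like genes for the aquaporin TIP1-2 (LOC111371374, 0.993), the CASP-like protein 1E2 (LOC111371464, 0.991) and the ethylene-responsive factor RAP2-13 (LOC111367521, 0.991). Such likeness was common, since 104 genes lay above 0.95 for LOC111392344, 84 for LOC111393284, 521 for LOC111366164, 654 for the hydroperoxide lyase gene and 497 for LOC111408828.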

How the data were processed

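Each of the 12 libraries comes from mesocarp RNA, extracted with a CTAB protocol and sequenced on the DNBseq platform, per the labels' protocols. The table holds FPKM for each gene and library, as deposited by the authors with 2 decimals. The submitters' processing notes list the programs Bowtie2 (2.2.5), HISAT2 (2.0.4), RSEM and StringTie (1.0.4) without saying what each was used for. Which genome build, annotation and strand setting were used is not given in the sources used here. No coordinates are therefore printed, and antisense overlaps cannot be separated. FPKM are not counts, and whole reads could not be recovered: in 2708 genes with low values, only 3.58 to 12.6% of library-to-library ratios came within 0.1 (log2) of the commonest ratio. Gene names are those of the file, without endings such as "-like", and do not establish a function. All 37991 described genes were found by symbol in the RefSeq table of O_europaea_v1.

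A gene was tested where at least 3 libraries reached 1 FPKM, which 26131 of 51008 genes did. The model was limma (version 3.58.1, R 4.3.3), with log2(FPKM + 1) as the response, 1 mean per age, all libraries, and variances shrunk toward a trend on abundance (8 residual and 4.32 prior degrees of freedom). A log2 change on this scale understates the change of low genes. Each age was set against the one before it, and 30 WAF also against 17 WAF. Tests were 2-sided, with Benjamini-Hochberg adjustment over all tested genes. Tables were made with pandas 2.3.3, numpy 2.4.6 and, in R, data.table (version 1.17.8), and figures with matplotlib 3.10.9.

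The 5 genes and the lists of descriptions were chosen with earlier results of these data known. Named beside the 5 are, per pathway list, the 3 tested genes with the highest mean. Named as well are, over all pathway lists and per comparison, the 3 largest rises and 3 largest falls with an adjusted p under 0.05 and at least 5 FPKM in the higher age, and the 3 genes most like each of the 5. The settings varied were the pseudocount (0.1), the filter (none, or a mean of 5 FPKM), the scaling (TPM, or median of ratios), the samples fitted (only those of both ages, or all but 1 library) and a block for the replicate letter.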

Additional observations from a re-analysis of the deposited data

How the results depend on the processing

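The counts of called genes among the 60 other pathway genes kept within 1.5 times their value under every alternative. They were 49, 47, 49 and 50 for 21 with 17, 26 with 21, 30 with 26 and 30 with 17 WAF, and 59 in the F test. Leaving out a library gave 42 to 49, 43 to 48, 48 to 51, 49 to 51 and 59 to 60. The other alternatives gave 36 to 49, 32 to 49, 33 to 54, 34 to 58 and 41 to 65, with the low ends under the stricter filter, which tests 41 of these genes, and the high ends, apart from the first, with no filter, which tests 97. With the replicate letter as a block the counts were 48, 48, 49, 50 and 59. No call changed among 35 of the tested pathway genes named in the text. These 35 leave out the low alcohol dehydrogenase genes LOC111374857, LOC111374858, LOC111373593 and LOC111371759, and the genes found by likeness. Same-letter libraries of different ages had correlations of their deviations of -0.0861 to 0.0742, none of 12 libraries correlated best with its own letter at every other age, and the letters were not taken as pairs.

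Of 140 results of those 35 genes (4 comparisons each), 17 changed their call under some alternative and 0 of the calls reversed. Among these, the 13-lipoxygenase LOC111366779 lost its small change for 21 over 17 WAF with TPM scaling (adjusted p = 0.083) and for 26 over 21 WAF with median-of-ratios scaling (adjusted p = 0.073). For the 5 genes described without a test, scaling moved 20 log2 differences by -0.11 to 0.08, leaving out a library by -0.07 to 0.07, and a pseudocount of 0.1 by -0.08 to 0.27. The direction turned in 2 near-zero differences. That of hydroperoxide lyase for 21 minus 17 WAF was 0.02 as deposited, -0.04 with TPM scaling and -0.002 without library A of 21 WAF. That of LOC111393284 for 26 minus 21 WAF was -0.06 as deposited and 0.003 with median-of-ratios scaling. Depth is unknown, so it sets no stated limit.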

Other observations

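Of the 109 other genes of the pathway lists, 49 did not pass the filter, and 12 of these were listed at 0 in every library. They included 2 lipoxygenase genes with at most 0.07 FPKM in any library and 24 phospholipase A1 and patatin-like genes with at most 0.76 FPKM. Of the list that holds the allene oxide synthases and cyclases, 9 genes did not pass, with at most 0.57 FPKM. Among them were all genes described as peroxygenases and as alpha-dioxygenases, which oxygenate fatty acids themselves.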
